A study of Mus musculus with 23 samples.

Results

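Transcript levels in -/- mouse embryonic stem (ES) cells given SRF-VP16 were set against the level in wild-type ES cells that had not received it, to ask which transcripts reached the wild-type level and which went beyond it. The comparison used 8 of 23 arrays, chosen by their labels. The SRF-VP16 side held 2 arrays of line E81 (-/-) and 2 of line E100 (-/-), both transfected with the SRF-VP16 expression plasmid. The wild-type side held 2 arrays of line E14 (wt) with vector and 2 of E14 with the control plasmid SRFdM-VP16. A further 7 arrays of E81 and E100 with vector or SRFdM-VP16, called -/- controls below, gave the level that the -/- lines had without SRF-VP16, and 4 control arrays of a +/- line, E99, served as an alternative. RNA was taken 72 h after transfection in every group. Which gene is +/- or -/- is not said in the labels, each genotype is represented by 1 line or, for -/-, 2 lines, and nothing says whether duplicates were separate cultures, so p-values measure the spread between these samples, which may be technical.

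Serum response factor (SRF) is a transcription factor that binds a short AT-rich element, the CArG box, near genes of the actin cytoskeleton, of muscle and of the immediate-early response to growth factors. Its own activity depends on partner proteins, some of which sense the pool of unpolymerised actin. In SRF-VP16 the protein is joined to the strong activation domain of the viral protein VP16, so the fusion can act without those partners. Actin itself is among the products of the genes that SRF binds.

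The values are the deposited linear intensities, 1 per probe set and array. Median intensities of the 8 arrays lay between 90 and 179, with 23.5% to 37.9% of values at or below 0. Any lower intensity was raised to a floor of 58 before taking log2. A fold against a group entirely at that floor is given as "at least", and where part of a group was there the floor sets the size. All 4 wild-type arrays were above the floor in 61.9% of probe sets. Precision is limited by the few arrays, and in bulk RNA fewer cells making a transcript and less RNA per cell cannot be told apart. In 1 array, E14 vector replicate 1, only 10.1% of the values were whole numbers, against 100% in each other array. Among the -/- controls, E81 SRFdM-VP16 replicate 1 stood apart with the lowest median correlation to the other arrays (0.878) and 43.6% of values at or below 0. The 2 E14 control arrays numbered 2 differed from those numbered 1 in many of the transcripts described here, so results are given with all 4 and again with only those numbered 1.

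Against all 4 wild-type controls, the -/- cells with SRF-VP16 differed in 170 of 9643 probe sets (1.76%), being higher in 131 (1.36%) and lower in 39 (0.404%), by limma's test at 5% after Benjamini-Hochberg adjustment. A further 2425 probe sets (25.1%) lay within 2-fold of wild type, meaning that the 95% interval of the difference stayed inside 2-fold either way and that all 4 wild-type arrays were above the floor. The other 7048 (73.1%) were undetermined. Of the higher probe sets, 110 were at least 2-fold and 46 at least 4-fold higher, and in 103 of the 131 all 4 SRF-VP16 arrays lay above all 4 wild-type arrays. That order was found in 4.4% of all probe sets. Of the lower ones, 28 were at least 2-fold lower, and in 23 of the 39 the arrays did not overlap, against 1.31% of all probe sets. Without E14 vector replicate 1 there were 81 higher and 40 lower. After quantile normalization there were 148 higher and 89 lower, with E81 alone 38 and 11, and in a fit of only the arrays compared 20 and 19. The errors given hold the spread between duplicates and not that between the 2 -/- lines or between vector and SRFdM-VP16. In a fit that pooled those, chosen after seeing the data, 19 probe sets were lower.

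**Figure D1:**
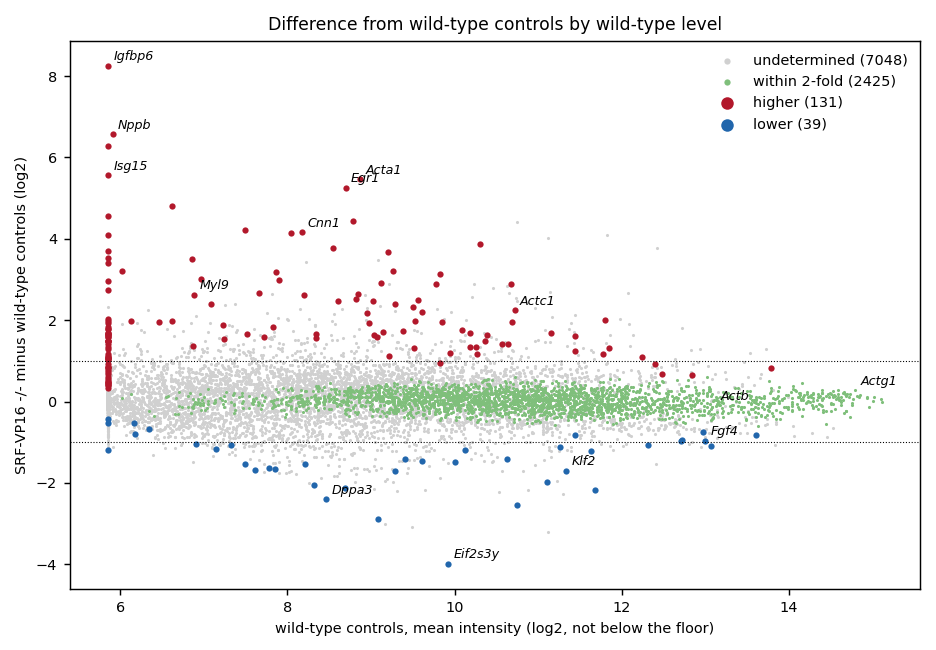
Each point is 1 of 9643 probe sets. The horizontal axis is the mean intensity of the 4 wild-type control arrays (log2, not below the floor) and the vertical axis is the log2 difference, SRF-VP16 -/- minus wild-type controls; dotted lines mark 2-fold either way and colours mark the 4 classes. The 131 higher probe sets include 31 with all 4 wild-type arrays at the floor, and the 2425 within 2-fold lie mostly at brighter wild-type levels.

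The level without SRF-VP16 showed which transcripts began below wild type. Against the wild-type controls, the -/- controls differed in 8 of 9643 probe sets (0.083%), being lower in 6 (0.0622%) and higher in 2 (0.0207%), with 609 at an unadjusted p under 0.05. Without E81 SRFdM-VP16 replicate 1 they were lower in 7 and higher in 8. Of the 6 lower probe sets 5 were at least 2-fold lower. SRF-VP16 brought 1 of these 5 to within 2-fold of wild type, left 4 still lower than wild type and carried 0 beyond it. Among those still lower, Slc6a18 and a probe set without a gene symbol rested on the wild-type arrays of 1 plasmid, as given below. Leaving out 1 array gave 2 (without E14 SRFdM-VP16 replicate 2) to 9 (without E14 SRFdM-VP16 replicate 1) still lower. The comparisons share arrays, so their values are given side by side and are not independent of each other.

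The transcript that returned was Actg1, which encodes cytoplasmic gamma-actin, a subunit of the filaments of every cell. Its intensities were 34211, 30227, 31974 and 41452 in the SRF-VP16 -/- arrays. In the -/- controls they were 7159 at the lowest, 10104 at the median and 14870 at the highest, and in the wild-type controls 25721, 30085, 29243 and 28474. All 4 SRF-VP16 arrays were above all wild-type arrays, though by little, and no -/- control array reached the lowest wild-type array. The difference from wild type was 0.27 ± 0.14 (log2, SE), with a 95% interval of -0.03 to 0.58 and adjusted p = 0.50. Without SRF-VP16 the difference from wild type was -1.44 ± 0.13 (adjusted p = 0.00016), and SRF-VP16 -/- from -/- controls by 1.72 ± 0.13 (adjusted p = 6.3e-06). Against only the wild-type arrays numbered 1 the difference was 0.32 and Actg1 was again within 2-fold. It lay within 2-fold against those numbered 2 as well (0.23).

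Other actins and actin-binding proteins took different places relative to wild type. Skeletal alpha-actin, Acta1, a thin-filament protein of striated muscle, read 8013, 7355, 20188 and 8834 in the SRF-VP16 -/- arrays. Its -/- controls read -387, -55 and 66 at the lowest, median and highest, and the wild-type controls 15.4, 799, 49 and 1007. All SRF-VP16 arrays were above all others, and the wild-type arrays split by their number, with both numbered 1 under the floor. Acta1 was 44.4-fold higher than wild type (5.47 ± 0.81, adjusted p = 0.003), 7.45 against the arrays numbered 1 and 3.50 against those numbered 2. Cardiac alpha-actin, Actc1, read 7105, 7759, 11618 and 6261 in the SRF-VP16 -/- arrays. In the -/- controls it read 295, 657 and 1367 at the lowest, median and highest, and the wild-type controls 1343, 1867, 1792 and 1737. The wild-type arrays lay together here and below every SRF-VP16 array. The difference was 2.25 ± 0.36 (4.76-fold, adjusted p = 0.0054). That probe set may also detect similar transcripts, and a dimmer one gave 2.75 with all wild-type arrays at the floor.

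Cytoplasmic beta-actin, Actb, read 9649, 7992, 11987 and 4075 in the SRF-VP16 -/- arrays, against 4909, 9247, 8146 and 13389 in wild-type controls. The groups overlapped, and the difference was -0.10 ± 0.36 with an interval of -0.88 to 0.68, which is within 2-fold. Its -/- controls, at 2899, 5456 and 7105, were not called lower than wild type (-0.66, adjusted p = 0.84), and against the arrays numbered 1 alone Actb was undetermined. Smooth-muscle gamma-actin, Actg2, also lay within 2-fold (0.17, interval -0.45 to 0.79) read by a probe set open to other actins. It was 1.17 above the -/- controls (adjusted p = 0.02), which themselves read -0.997 against wild type without passing the test (adjusted p = 0.26).

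**Figure D2:**
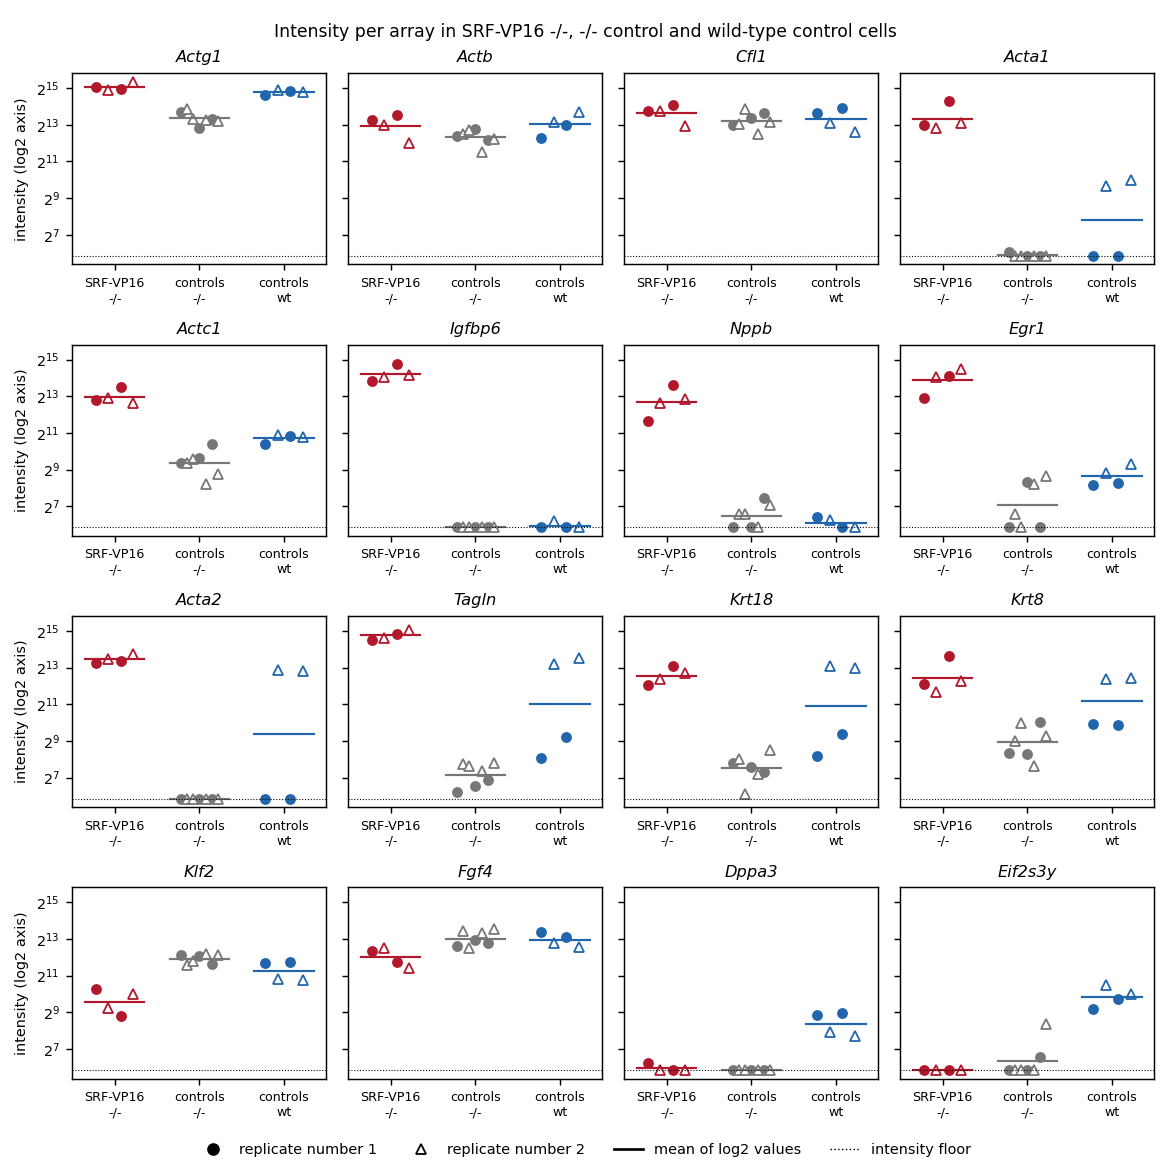
Intensity in each array (log2 axis, dotted line at the floor of 58) for 4 SRF-VP16 -/- arrays, 7 -/- control arrays and 4 wild-type control arrays, with circles for replicate number 1, triangles for number 2 and a bar at the mean of the log2 values. Actg1 lies just above the wild-type arrays, Igfbp6, Nppb and Egr1 stand far above it, and Acta2, Tagln and Krt18 lie near the wild-type arrays numbered 2 and far above those numbered 1.

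Of 37 measured actin-cytoskeleton and SRF-target genes, 7 were higher than wild type and 0 lower, 9 lay within 2-fold and 21 were undetermined. Of all 6813 named genes, 1.63% were higher, 28.1% within 2-fold and 69.8% undetermined. SRF-VP16 had raised 15 of the 37 over the -/- controls, against 3.51% of all named genes. The median difference of the list was 0.29, against 0.04 over all named genes. Besides Acta1 and Actc1 the higher genes were Csrp1, Cnn1, Myl9, Fhl2 and Myh9. Csrp1, a LIM protein of the smooth-muscle cytoskeleton, read 7562, 12034, 15958 and 11405 in SRF-VP16 -/- arrays and 274, 2294, 252 and 2258 in wild-type controls, a difference of 3.87 ± 0.78 (adjusted p = 0.022). Calponin, Cnn1, a regulator of smooth-muscle contraction, read 2626, 2248, 6356 and 2725 in SRF-VP16 -/- arrays and -1.6, 916, -80 and 323 in wild-type controls (4.16 ± 0.82, adjusted p = 0.019). In both genes the groups did not overlap, and the wild-type arrays numbered 2 were above those numbered 1. Myosin light chain 9 (Myl9, 2.62 ± 0.61, adjusted p = 0.046) and the LIM cofactor Fhl2 (2.46 ± 0.47, adjusted p = 0.016) passed with SRF-VP16 arrays of 356 to 2047 and of 1470 to 3241. The wild-type controls read 22, 269, -45 and 226 for Myl9, and 577.6, 919, 169 and 419 for Fhl2. Non-muscle myosin Myh9 was 1.42 higher. The members within 2-fold were Actg1, Actb, Actg2, Fhl1, Csrp2, Tmsb10, Capza1, Ezr and Dstn, which include regulators of filament length and ends such as capping protein (Capza1, 0.19) and destrin (Dstn, 0.03). Cofilin, Cfl1, which severs actin filaments, was undetermined (0.31 ± 0.38). The calls of Cnn1, Myl9 and Fhl2 ended when single arrays were left out, as given below.

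The CArG box was looked for in the RefSeq promoter windows of build GRCm38.p6, which run from 250 bases before to 50 bases after each gene's start, on both strands (the element reads as a CArG box on either). It was found in 1.63% of all 32851 windows. Among named genes with a window it was found in 8 of 89 genes higher than wild type (8.99%), 0 of 22 lower, 20 of 1560 within 2-fold (1.28%) and 102 of 5494 in all (1.86%). A match is a run of letters and no evidence of binding, and a gene without one may have one elsewhere. The windows of 7 actin, muscle and early-response genes with a match are shown, cut to 25 bases either side of the element (fewer where the window or the start cut it short), 5′ to 3′ on the gene's strand, with the element in capitals. Cnn2 (undetermined, -1.97) and Fhl1 (within 2-fold, -0.11) also held a match and are not shown. Nor are Pip5k1a (1.48), Ebf3 (1.37) and Nr2f6 (1.34), which were among the 8 higher genes with a match. Those shown are Actg1, which came back to the wild-type level, Acta1, Actc1, Myl9, Fhl2 and Egr2, which went beyond it, and Vcl, which was undetermined.
Actg1, chr11:120348551-120348610, minus strand: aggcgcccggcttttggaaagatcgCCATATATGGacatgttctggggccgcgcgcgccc
Acta1, chr8:123894814-123894873, minus strand: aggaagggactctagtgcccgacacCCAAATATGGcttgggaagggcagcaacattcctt
Actc1, chr2:114052888-114052947, minus strand: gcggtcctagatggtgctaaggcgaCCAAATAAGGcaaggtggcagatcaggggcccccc
Myl9, chr2:156775278-156775337, plus strand: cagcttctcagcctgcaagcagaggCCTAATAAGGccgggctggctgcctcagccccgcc
Fhl2, first start, chr1:43196823-43196882, minus strand: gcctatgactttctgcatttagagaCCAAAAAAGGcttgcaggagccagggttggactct
Fhl2, other start, chr1:43163962-43164017, minus strand: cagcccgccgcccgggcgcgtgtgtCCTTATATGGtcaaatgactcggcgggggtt
Egr2, first site, chr10:67537469-67537528, plus strand: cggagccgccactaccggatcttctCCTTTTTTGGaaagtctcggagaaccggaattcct
Egr2, other site, chr10:67537772-67537831, plus strand: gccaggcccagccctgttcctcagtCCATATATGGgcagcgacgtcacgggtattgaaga
Vcl, chr14:20929148-20929205, plus strand: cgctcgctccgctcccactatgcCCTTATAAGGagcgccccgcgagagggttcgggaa
The element began 90 bases before the start of Actg1, 73 before that of Acta1 and 47 before that of Actc1. The Actg1 element has the same letters as the other site of Egr2.

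The transcripts that went furthest beyond wild type were low in both kinds of control. Igfbp6, a secreted protein that binds insulin-like growth factors, read 14409, 16991, 27179 and 18535 in the SRF-VP16 -/- arrays. Among the -/- controls it read -298, -174 and 32 at the lowest, median and highest, and the wild-type controls 24.6, 72, -73 and 40. Every SRF-VP16 array was far above every control, and all but 1 of the wild-type arrays were at the floor. The difference was 8.26 ± 0.38 (306-fold, adjusted p = 4.6e-08). Nppb, the precursor of brain natriuretic peptide of the heart, read 3182, 6299, 12301 and 7286 in the SRF-VP16 -/- arrays, against 86.1, 75, 22 and 57 in wild-type controls (6.58 ± 0.31, 95.4-fold, adjusted p = 4.6e-08). Its -/- controls ran from -66 to 172, overlapping the wild-type range. Krt17, a keratin of stratified epithelia, was 6.28 ± 0.75 higher (adjusted p = 0.00059), with a probe set open to related keratins. Its other probe set gave 4.15. Igfbp6, Nppb and Krt17 kept their calls in each of 27 other settings, with a size that depends on the floor.

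Early-response factors were split. Egr1, a zinc-finger factor, read 7648, 16764, 17339 and 22881 in the SRF-VP16 -/- arrays. Its -/- controls read -50, 97 and 404 at the lowest, median and highest, and the wild-type controls 282.9, 449, 303 and 624. The SRF-VP16 arrays were above all controls, and the wild-type and -/- control ranges overlapped. Egr1 was 38.1-fold higher than wild type (5.25 ± 0.49, adjusted p = 6.8e-05). Egr2, which is related to it, read 4153, 9654, 6962 and 10547 in the SRF-VP16 -/- arrays and 675, 735, 522 and 427 in wild-type controls (3.68 ± 0.27, 12.8-fold, adjusted p = 6e-06). Both kept their calls in each of 27 other settings. Of the 24 early-response genes measured these 2 were higher, 2 lay within 2-fold (Ier2 and Fosb) and 20 were undetermined, with a list median of 0.81. Over all named genes 1.63% were higher and 28.1% within 2-fold. Fos read -37, -48, 131 and 185 in the SRF-VP16 -/- arrays and 112.4, 153, 7 and 75 in wild-type controls, so the groups overlapped close to the floor (0.03 ± 0.32, adjusted p = 1).

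Other transcripts with large differences included muscle, epithelial and secreted products. Slow troponin C, Tnnc1, the calcium sensor of slow and cardiac muscle, read 337, 2011, 1464 and 975 in the SRF-VP16 -/- arrays and at most 40 in wild-type controls. It was thus at least 17.1-fold higher (4.10 ± 0.38, adjusted p = 6.8e-05). The calcium pump Atp2a1 was at least 3.11-fold higher (1.64 ± 0.24, adjusted p = 0.0029). With Nppb these 2 were the higher genes of 20 measured for striated muscle and heart, and 0 were lower or within 2-fold. The shares over all named genes were 1.63% higher and 28.1% within 2-fold. The muscle intermediate filament desmin did not pass (Des, 1.42 ± 0.36, adjusted p = 0.075). Edn1, the precursor of the vasoconstrictor endothelin 1, was 4.21 ± 0.62 higher (adjusted p = 0.0029; another probe set 1.03, adjusted p = 0.65), and F3, tissue factor, 4.45 ± 0.86 (adjusted p = 0.017). Crabp2, which carries retinoic acid, was 4.56 ± 0.32 higher (adjusted p = 5e-06), from wild-type arrays of -25.8, 11, 13 and 118. Isg15, a ubiquitin-like protein of the interferon response, read 2533, 1111, 9358 and 2124 in the SRF-VP16 -/- arrays with every control at the floor, so it was at least 47.2-fold higher (5.56 ± 0.59, adjusted p = 0.00023). It was the 1 higher gene of 11 measured for that response, where Irf1 lay within 2-fold (0.04). Crct1, a cornified-envelope protein, was 4.81 ± 0.65 higher (adjusted p = 0.0016).

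SRF-VP16 -/- differed from -/- controls in 414 probe sets (4.29%). Of the 292 raised (3.03%), 124 were higher than wild type, 11 within 2-fold of it, 157 undetermined and 0 lower. Leaving out 1 array gave 77 (without E14 vector replicate 1) to 191 (without E100 SRF-VP16 replicate 2) raised and higher, and 3 (without E81 SRF-VP16 replicate 1) to 12 (without E14 vector replicate 1) raised and within 2-fold. Of the 122 lowered (1.27%), 0 were higher than wild type, 22 were within 2-fold, 80 undetermined and 20 lower. Each of the 11 that were raised and within 2-fold had -/- controls below wild type in the estimate, by a median of -0.27 (log2). That estimate equals the difference of SRF-VP16 -/- from wild type minus the rise over the -/- controls. Choosing raised probe sets near wild type thus itself favours negative values. The shortfall was at least 2-fold in 2 of the 11. Only Actg1 of them had a called deficit. They included the integrin subunit Itgb1, which read 12196, 15056, 14329 and 11588 in the SRF-VP16 -/- arrays and 8497, 13594, 8563 and 12278 in wild-type controls (0.33, interval -0.07 to 0.74). The protein kinase Akt1 (-0.01, interval -0.69 to 0.66), Cdc42se1 (0.42) and the adaptor subunit Ap2m1 (0.30) were others. Among the 22 that were lowered and within 2-fold were the proliferation marker Mki67 and the transcription factor Tfcp2l1 of the ES cell network. Mki67 read 1673, 1318, 1079 and 639 in the SRF-VP16 -/- arrays and 1366, 1277, 1084 and 1473 in wild-type controls. Its -/- controls read 2048, 2160 and 2928, above all of these arrays, though not called against wild type (0.85, adjusted p = 0.16). Tfcp2l1 read 7067, 5497, 5509 and 3679 in SRF-VP16 -/- arrays and 7070, 5330, 5380 and 4837 in wild-type controls, with -/- controls from 6860 to 10706 (0.68 against wild type, adjusted p = 0.20).

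Several transcripts that SRF-VP16 raised strongly over the -/- controls were undetermined against wild type, and their wild-type arrays differed by number. Smooth-muscle actin, Acta2, read 9860, 11179, 10432 and 13779 in the SRF-VP16 -/- arrays and between -409 and -56 in the -/- controls. The wild-type controls read -242.3 with vector and -52 with SRFdM-VP16 in the arrays numbered 1, and 7463 with vector and 7302 with SRFdM-VP16 in those numbered 2. The SRF-VP16 arrays were above all of them, but the 2 wild-type pairs were far apart. Against all 4, Acta2 differed by 4.10 ± 1.40 (adjusted p = 0.22), against those numbered 1 which were at the floor, by at least 193-fold (7.60, adjusted p = 9.3e-06), and against those numbered 2 by 0.60 (adjusted p = 0.80). Transgelin, Tagln, an actin-binding protein of smooth muscle, read 23513, 24940, 29157 and 34217 in the SRF-VP16 -/- arrays. Its wild-type controls read 263.5 and 591 in the arrays numbered 1, against 9417 and 11738 in those numbered 2. The difference was 3.76 with all 4 (adjusted p = 0.086), 6.13 with those numbered 1 (adjusted p = 9.4e-05) and 1.40 with those numbered 2 (adjusted p = 0.33). The growth factor Igf2 behaved alike by its brightest probe set, with 4.42 (adjusted p = 0.10), 7.47 (adjusted p = 1.4e-06) and 1.36 (adjusted p = 0.077), while its other probe set was at the floor in all 8 arrays.

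The keratins of simple epithelia showed the same division. Krt18 read 4257, 5297, 8732 and 6649 in the SRF-VP16 -/- arrays and 70, 189 and 357 at the lowest, median and highest in the -/- controls. The wild-type controls read 291.1 and 674 in the arrays numbered 1, against 8843 and 8168 in those numbered 2. The SRF-VP16 arrays lay above the first pair and overlapped the second. Krt18 therefore differed by 3.76 from the arrays numbered 1 (adjusted p = 0.00084) and by -0.50 from those numbered 2 (adjusted p = 0.84). Its partner Krt8 differed by 2.51 (adjusted p = 0.011) and by 0.02 (adjusted p = 1), and lay within 2-fold of the arrays numbered 2. Annexins that bind membranes in a calcium-dependent way split too: Anxa1 differed by 6.80 and 1.25, Anxa2 by 4.26 and 1.06 and Anxa3 by 4.75 and 0.92, in the same order. The matricellular protein Ccn1 differed by 4.26 and 0.99.

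With only the 2 wild-type arrays numbered 1, 203 probe sets were called (2.11%), of which 142 were higher (1.47%) and 61 lower (0.633%), and 1446 lay within 2-fold (15%). Each wild-type group then held 1 array, whose spread was taken from the other groups. Of the 131 higher with all 4 arrays, 87 were higher again, 43 were undetermined and 1 was within 2-fold. Another 55, undetermined before, became higher. These were picked out by dropping the arrays numbered 2, a choice that itself favours probe sets with those arrays above the others. Both arrays numbered 2 were above both numbered 1 in 50 of them (90.9%), against 18.2% of all probe sets. In 29 of them the brighter wild-type array numbered 2 reached the lowest SRF-VP16 array, against 8869 of all 9643. Besides those named above the 55 included Krt19, Gsn, Ccn2, Dsp, Col4a1, Sparc, Jun, Lpp, Prnp and Lgals1. The median difference here was 0.32 in the actin and SRF-target list and 1.05 in the early-response list. It was 1.98 in the keratin and junction list, against 0.04 over all named genes. Against these arrays the -/- controls were lower in 20 probe sets (0.207%) and higher in 1 (0.0104%). Of the deficits of at least 2-fold among them, Actg1 again returned, 4 were still apart and 0 were exceeded.

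**Figure D3:**
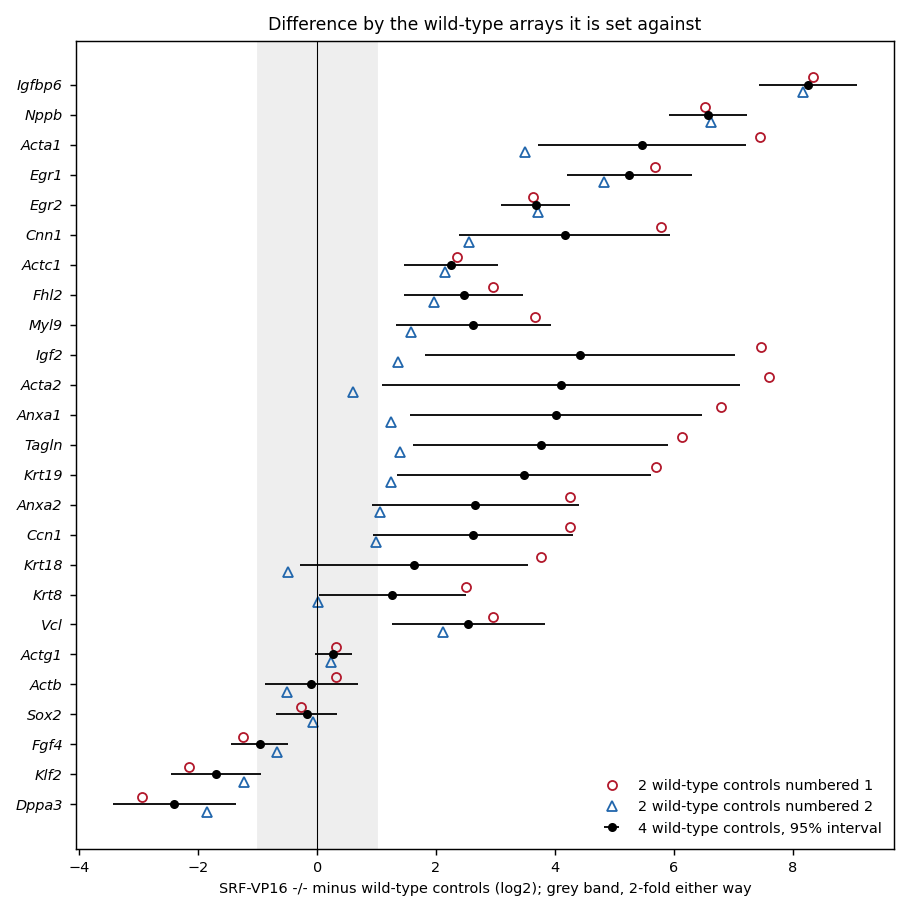
Log2 difference, SRF-VP16 -/- minus wild-type controls, for named genes: black points with 95% intervals use all 4 wild-type arrays, red circles the 2 numbered 1 and blue triangles the 2 numbered 2, and the grey band is 2-fold either way. Igfbp6 stands at 8.26, 8.34 and 8.18, whereas Acta2 stands at 4.10, 7.60 and 0.60.

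A fit with only the 2 wild-type arrays numbered 2 was added after seeing the data. It gave 64 higher and 68 lower probe sets, and called many more deficits of the -/- controls. Of these, Actg1, Krt8, Lgals1 and Cavin3 were returned by SRF-VP16, Acta1 and Gata3 were exceeded, 13 were still apart and 21, the largest class, were undetermined. Lgals1, galectin 1, read 19810, 26176, 22810 and 31955 in the SRF-VP16 -/- arrays, against 21670 and 23359 in these wild-type arrays and 3921 and 5371 in those numbered 1. Tagln and Acta2 had called deficits of -6.14 and -6.99 and were undetermined against this pair. Whether Acta2, Tagln or the simple keratins reached or exceeded wild type depended on the wild-type arrays taken, and what set those arrays apart was not tested. In the E99 +/- control arrays, Acta2 read -149 to -22, Tagln 350 to 621, Krt18 496 to 857 and Krt8 637 to 836. Against these arrays limma gave 7.60 for Acta2 (adjusted p = 0.0077) and 5.79 for Tagln (adjusted p = 0.0049). It gave 2.90 for Krt8 (adjusted p = 0.012) and 3.19 for Krt18 (adjusted p = 0.063). E99 is another line with another genotype. Sums over marker lists moved with the number of the wild-type array. They include genes already described as split by it, so they are not separate evidence. The smooth-muscle list holds Acta2 and Tagln, and the primitive-endoderm list holds Krt8 and Krt18. Smooth-muscle markers summed to 10293 and 8545 in the wild-type arrays numbered 1 and to 27530 and 29866 in those numbered 2. Primitive-endoderm markers summed to 7586 and 6982 against 27860 and 25101. That list shares Col4a1, Col4a2 and Sparc with the basement-membrane list, and Sparc read 920.1 and 1051 against 5182 and 3893. Its factor Gata6 was at the floor in every wild-type control array.

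Transcripts lower than wild type were fewer and their differences smaller. Of 28 pluripotency genes measured, 3 were lower (0.455% of all named genes were), 0 higher, 9 within 2-fold and 16 undetermined, with a median of -0.53. Klf2, a Krüppel-like factor of the ES cell network, read 1241, 591, 442 and 1012 in the SRF-VP16 -/- arrays. In the -/- controls it read 3003, 4304 and 4599 at the lowest, median and highest, and the wild-type controls 3316, 1835, 3463 and 1734. The SRF-VP16 arrays were below all others (-1.70 ± 0.35, adjusted p = 0.027). Fgf4, a growth factor that ES cells secrete, read 5190, 5720, 3412 and 2771 in the SRF-VP16 -/- arrays, against 10711, 7011, 8835 and 6114 in wild-type controls (-0.96 ± 0.22, adjusted p = 0.046). Dppa3, a maternal-effect gene of early embryo and germ cells, read 75, -129, -32 and -56 in the SRF-VP16 -/- arrays and 463.4, 239, 496 and 209 in wild-type controls (-2.40 ± 0.48, adjusted p = 0.021). Its -/- controls were as low, at -143, -27 and 58, though their own difference from wild type did not pass (-2.50, adjusted p = 0.064). Sox2, a central factor, lay within 2-fold (-0.18, interval -0.69 to 0.34), as did Klf4, Sall4 and Stat3. Klf5 also lay within 2-fold, but with an interval wholly below wild type (-0.59, interval -0.92 to -0.26). It was undetermined against the arrays numbered 1, and lowered against the -/- controls (-0.61, adjusted p = 0.023 by limma). Pou5f1 was undetermined (-0.66 ± 0.27, adjusted p = 0.34). It read 22064, 20405, 18099 and 5994 in the SRF-VP16 -/- arrays and 24194, 23239, 27498 and 19553 in wild-type controls. Without E100 SRF-VP16 replicate 1 the difference was -1.06, with 5994 the only E100 value left. The lower call of Pou5f1 in that setting rested on this array.

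Outside that list the lower genes included some that were already low in the -/- lines. Eif2s3y, a Y-linked translation factor, read -18, -36, 5 and 56 in the SRF-VP16 -/- arrays and -99, 17 and 328 at the lowest, median and highest in the -/- controls. The wild-type controls read 574.2, 1432, 832 and 1040, above all of these. The E99 control arrays were low too, at 50, 80, -17 and -16. Eif2s3y was lower by at least 15.8-fold (-3.99 ± 0.37, adjusted p = 6.8e-05), a deficit that stayed. The transporter Slc6a18 was also called still lower (-1.66 ± 0.26, adjusted p = 0.0041), but only the E14 vector arrays were above the floor, at 483.6 and 695, and the SRFdM-VP16 arrays overlapped the -/- arrays. Its call ended in the fit that pooled both plasmids (adjusted p = 0.24). The other 2 deficits still apart have no single gene symbol. The smaller of them (-1.19 against wild type) also depended on the plasmid. Only its E14 SRFdM-VP16 arrays were above the floor, at 278 and 325. Its E14 vector arrays read -322.9 and -278, under the floor like every -/- array. Yipf4, a Golgi membrane protein, was low with SRF-VP16 alone: it read 436, 392, -125 and 596 in the SRF-VP16 -/- arrays, 1507 to 3800 in the -/- controls and 2684, 1687, 1450 and 1061 in wild-type controls (-2.55 ± 0.52, adjusted p = 0.025). Ebf1, a B-cell and fat-cell factor, fell to the floor in 3 SRF-VP16 arrays (-1.53 ± 0.26, adjusted p = 0.0079), and Mutyh, a DNA repair glycosylase, differed by -1.63 ± 0.30 (adjusted p = 0.014). 1190005I06Rik (-2.17), 1810009J06Rik (-1.68), Ntan1 (-1.54; another probe set -0.46) and Yju2 (-1.42) were also lower.

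Of 10 housekeeping genes 7 lay within 2-fold, and 0 were higher or lower, among them Ywhaz (0.31 ± 0.18), Rps18 (0.28 ± 0.17) and Pgk1 (0.13). The other 3 were undetermined, and over all named genes 28.1% lay within 2-fold and 1.63% were higher. B2m, the light chain of class I histocompatibility molecules, which is also on the interferon list, read 3253, 9629, 5236 and 7899 in the SRF-VP16 -/- arrays and 266.3, 2491, 374 and 1695 in wild-type controls. Its groups did not overlap (2.90 ± 0.95, adjusted p = 0.20). Gusb, a lysosomal enzyme, gave 0.90 (adjusted p = 0.39). Of 30 cell-cycle genes 12 lay within 2-fold, including Mcm7 (-0.53), Pcna (-0.25), Cdk1 (-0.24) and Ccna2 (-0.26), and the list median was -0.26. By limma 0 passed in either list after adjustment, and 2 housekeeping and 7 cell-cycle genes had an unadjusted p under 0.05. Of 18 focal-adhesion genes 4 lay within 2-fold (Actn4, Itgb1, Lims1 and Vasp), 0 were called by limma (7 at an unadjusted p under 0.05) and 14 were undetermined. Vinculin, Vcl, which anchors actin at adhesions, read 7044, 9991, 11138 and 8870 in the SRF-VP16 -/- arrays, above 1168, 2969, 1178 and 1495 in wild-type controls. It narrowly missed the threshold (2.54 ± 0.60, adjusted p = 0.050), and its dimmer probe set was called higher (1.495, adjusted p = 0.014). Of 15 annexins and S100 proteins 1 was higher by its brightest probe set (Anxa4, 1.64 ± 0.35, adjusted p = 0.032), and a dimmer probe set of Anxa1 was higher as well (3.20, adjusted p = 0.019, against 4.02 and 0.11 for the brightest). Of 10 insulin-like growth factor genes 1 was higher (Igfbp6), with Igf1, Igfbp2 and Grb10 within 2-fold. The stress and p53 list had 0 called of 11 by limma (3 at an unadjusted p under 0.05), and Cdkn1a, a cell-cycle inhibitor, did not pass (1.51 ± 0.46, adjusted p = 0.16). Its other probe set gave 2.30 (adjusted p = 0.051), and 3.35 against the arrays numbered 1 (adjusted p = 0.0048).

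**Figure D4:**
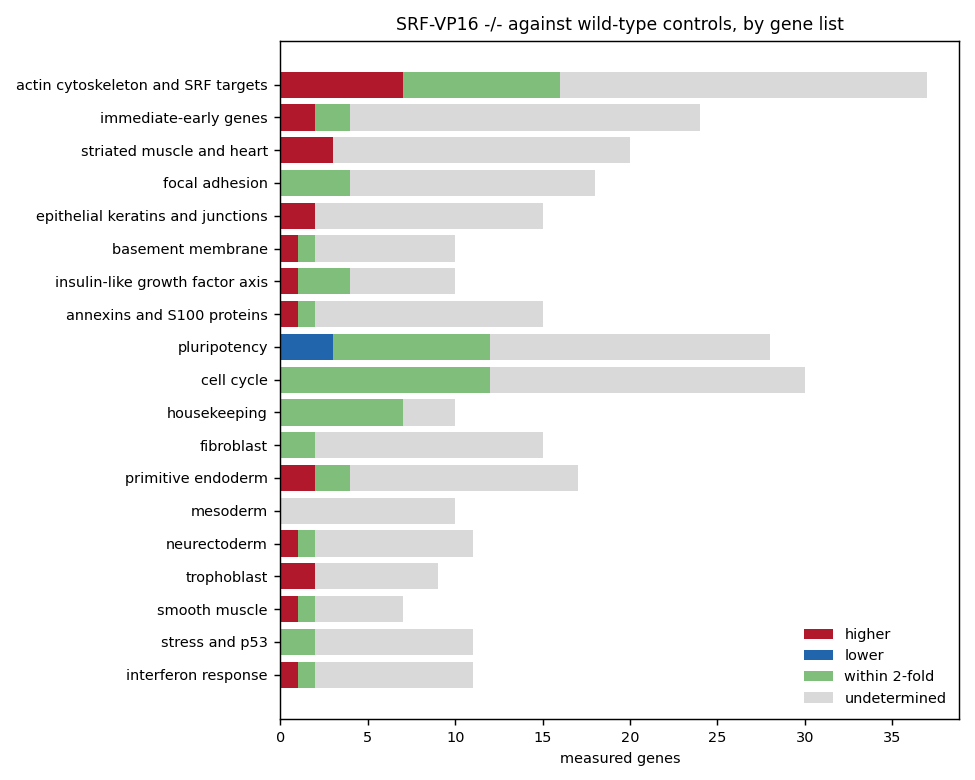
Number of measured genes in each list (horizontal axis) by class of the difference between SRF-VP16 -/- and wild-type controls. The actin and SRF-target list holds 7 higher and 9 within 2-fold of 37, the pluripotency list 3 lower of 28, and the housekeeping list 7 within 2-fold of 10.

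Markers of other cell types were read beside these results. The counts of higher genes given here stand beside 1.63% of all named genes. Of 15 genes for epithelial keratins and junctions, Krt7 (3.53 ± 0.41, adjusted p = 0.00054) and E-cadherin (Cdh1, 0.96 ± 0.21, adjusted p = 0.04) were higher, and of 10 for the basement membrane, Col4a2 (1.95 ± 0.45, adjusted p = 0.049). Of 17 primitive-endoderm markers, 2 were higher, Col4a2 and Gata6 (1.78 ± 0.38, adjusted p = 0.03), while of the defining factors Gata4 lay within 2-fold (-0.06) and Sox17 and Sox7 were undetermined (0.38 and 0.24). Gata6 had every wild-type array at the floor and 95 to 420 in the SRF-VP16 -/- arrays, overlapping -80 to 333 in the -/- controls, and its other probe set read -0.08. Of 9 trophoblast markers 2 were higher, Krt7 and Tpbpa, while Cdx2 was not (0.03). Of 11 neurectoderm markers, Nes, a filament protein of neural progenitors, was higher by its brightest probe set (2.52 ± 0.53, adjusted p = 0.029). Sox3, a factor of neural progenitors, was undetermined by its brightest probe set (0.88, adjusted p = 0.56) and higher by another (1.66, adjusted p = 0.046). Of 15 fibroblast and 10 mesoderm markers 0 were called by limma (2 and 1 at an unadjusted p under 0.05), with list medians of 0.01 and 0.11. Summed intensities of the smooth-muscle markers ran from 46131 to 62722 in SRF-VP16 -/- arrays, from 3379 to 8683 in -/- controls and from 8545 to 29866 in wild-type controls. Those of primitive endoderm ran from 26890 to 56319, from 5402 to 15894 and from 6982 to 27860, and those of fibroblasts from 4690 to 5711, from 3282 to 5109 and from 2819 to 4856, in the same order. Pluripotency genes summed to 72106 to 114109 in SRF-VP16 -/- arrays, 95898 to 199215 in -/- controls and 103007 to 147857 in wild-type controls. The primitive-endoderm sums include Col4a1, Col4a2 and Sparc, which are also on the basement-membrane list. They also include Krt8 and Krt18, and the smooth-muscle sums include Acta2 and Tagln. The part that other cell types had in the results was not tested.

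Some of these calls rested on how the spread was taken or on single arrays. In the fit that pooled lines and control plasmids, 12 of 36 called named genes lost their call, which were Fhl2 (adjusted p = 0.057), Nes (0.075), Fgf4 (0.070), Cdh1 (0.24), Gata6 (0.15), Anxa4 (0.14), Ebf1 (0.092), Mutyh (0.23), Ntan1, 1810009J06Rik, Slc6a18 and Tpbpa. In the same fit 5 gained one: Dsp, Igf2, Krt19, Tagln and Vcl. Of the 36 named genes called against wild type, 19 kept their call when any 1 of the 8 arrays was left out, namely 1190005I06Rik, Acta1, Actc1, Atp2a1, Crabp2, Crct1, Ebf1, Edn1, Egr1, Egr2, Eif2s3y, Igfbp6, Isg15, Krt17, Krt7, Nppb, Slc6a18, Tnnc1 and Tpbpa. The other 17 did not. Without E81 SRF-VP16 replicate 2, 16 lost theirs, which were 1810009J06Rik, Anxa4, Cdh1, Cnn1, Col4a2, Dppa3, F3, Fgf4, Fhl2, Gata6, Klf2, Mutyh, Myl9, Nes, Yipf4 and Yju2. Without E81 SRF-VP16 replicate 1, 10 lost theirs: 1810009J06Rik, Cdh1, Cnn1, Col4a2, Fgf4, Myl9, Nes, Ntan1, Yipf4 and Yju2. Without E100 SRF-VP16 replicate 1, 12 did: 1810009J06Rik, Anxa4, Cdh1, Cnn1, Col4a2, Dppa3, Fgf4, Gata6, Klf2, Myl9, Nes and Ntan1, while Pou5f1 became called lower. Without E100 SRF-VP16 replicate 2, 6 did: 1810009J06Rik, Anxa4, Cdh1, F3, Fgf4 and Yju2, while Col4a1 and Fosl1 became called. Without E14 vector replicate 1, 14 did: Anxa4, Cdh1, Cnn1, Col4a2, Dppa3, Fgf4, Fhl2, Gata6, Klf2, Mutyh, Myl9, Nes, Yipf4 and Yju2. Without E14 SRFdM-VP16 replicate 1, 15 did: 1810009J06Rik, Anxa4, Cdh1, Cnn1, Col4a2, Dppa3, F3, Fgf4, Fhl2, Gata6, Klf2, Myl9, Nes, Ntan1 and Yipf4. Leaving out a wild-type array numbered 2 had the other effect on the split genes. Without E14 vector replicate 2, 13 named genes became called, among them Acta2, Tagln, Igf2, Ccn1, Jun and Vcl, and 6 lost their call (1810009J06Rik, Anxa4, Cdh1, Gata6, Ntan1 and Yju2). Without E14 SRFdM-VP16 replicate 2, 7 became called, again with Acta2, Tagln and Igf2, and 6 lost it (Anxa4, Cdh1, Col4a2, Gata6, Ntan1 and Yju2).

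The 2 -/- lines were also set against each other. E81 and E100 with SRF-VP16, 2 arrays against 2, differed in 44 probe sets (0.456%), 5 higher (0.0519%) and 39 lower in E81. Of the 93 named genes 16 differed by at least 2-fold in the estimate, 11 lower and 5 higher in E81, and 1 passed the test. Krt7 differed by -1.47 (adjusted p = 0.50), Gata6 by -1.43 (adjusted p = 0.45), Isg15 by -1.41 (adjusted p = 0.70) and Nppb by -1.08 (adjusted p = 0.50). Acta1 differed by -0.80 (adjusted p = 0.98), Igfbp6 by -0.52 (adjusted p = 0.91) and Actg1 by -0.18 (adjusted p = 0.93). With 2 arrays against 2 these differences did not pass, although some of similar size did, such as Rasd1 (-1.56, adjusted p = 0.031). A difference that did not pass does not show that the lines were alike. Tpbpa, a trophoblast marker, was the named gene that passed (-1.71, adjusted p = 9.2e-05), with -3 and 11 in E81 and 153 and 235 in E100. Its difference from wild type was 0.85, with only the E100 arrays above the floor.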

How the data were processed

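Total RNA was measured on 23 arrays in 12 groups, and the authors deposited linear intensities, 1 value for each probe set. How these were background-corrected and scaled, and with which program, is not given in the sources used here. Groups were taken from the labels, and 0 columns of the table were left unused. Of 12502 probe sets, 66 controls were left out, and 9643 lay above the 40th percentile of their array in at least 2 arrays and were kept. Values below the 40th percentile of all values (58) were set to it. Gene names came from the platform annotation, with 10141 probe sets of 1 symbol, 362 of several and 1933 of none. Some genes were not analysed here.

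Limma 3.58.1 in R 4.3.3 fitted 1 mean per group over all 23 arrays, with an intensity trend and 11 residual degrees of freedom. Tests were two-sided with Benjamini-Hochberg adjustment over the 9643. On simulated data in this comparison, 20% of 2-fold rises, 74% of 4-fold rises, 64% of 4-fold falls and 100% of 8-fold rises were recovered, with 13 false of 142 calls. Of the 5048 unchanged probe sets counted there 55.2% were classed within 2-fold, as were 4% of the 50 changed 2-fold. In the data, 31 of the 131 higher probe sets had all wild-type arrays at the floor and 39 had some there. How far these rates hold for such probe sets was not tested. Named genes, 93 in all, were the 10 largest higher and lower with arrays that did not overlap, the deficits by fate, 4 of each of 19 lists by adjusted p, and a fixed set; a gene's brightest probe set was used. Csrp1, Myh9, Lgals1, Mki67, Tfcp2l1 and other genes named as examples of a class were chosen after their values were seen. The members and lists were chosen with earlier results of these data known. Promoters were searched and figures drawn in Python 3.11.15. Alternatives covered scaling, floor, filter, trend, replicate number, choice of wild-type arrays, single lines, the E99 controls, and leaving out each array.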

Additional observations from a re-analysis of the deposited data

Results flagged for a closer look

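In groups of 4 to 10 arrays with every array above the floor, 11 of 197 groups of the named genes held 1 array far from the others by Dixon's criterion, a share close to the 1 in 20 that chance gives. Among the SRF-VP16 -/- arrays, Pou5f1 read 5994 in E100 replicate 2 against 18099 to 22064 in the others. Sox2 read 7694 in E100 replicate 1 against 11542 to 12494, Tln1 2291 in E100 replicate 1 against 622 to 744, and Yju2 148 in E100 replicate 2 against 289 to 310. In E81 replicate 1, Anxa3 read 2598 against 6452 to 7377 and Perp 3506 against 6768 to 7567, and in E81 replicate 2, H2-K1 read 3589 against 2403 to 2468. Among the -/- controls, Vcl read 89 and Sox2 9144 in E81 SRFdM-VP16 replicate 1, against 1026 to 1281 and 15050 to 21958 in the others. Peg10 read 263 in E81 SRFdM-VP16 replicate 2 against 535 to 898, and 1810009J06Rik 71 in E100 SRFdM-VP16 replicate 1 against 225 to 369. Tpbpa differed between the lines with SRF-VP16 by -1.71 (E81 minus E100, log2) in limma's test of that difference.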

How the results depend on the processing

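Of 968 pairs of a called named gene and a setting, 708 kept the call and 0 turned direction; 7 of 36 called genes (Igfbp6, Nppb, Krt17, Isg15, Egr1, Crabp2 and Egr2) kept it in each setting. Of 57 uncalled named genes, 9 changed sign in some setting. Probe sets higher than wild type numbered 131; they were 79 with an inverse hyperbolic sine, 64 with the wild-type arrays numbered 2, 59 with E14 vector alone as wild type, 38 with E81 alone, 360 with the E99 controls in place of wild type, and 20 in a fit of only the arrays compared. Lower probe sets, 39, were 89 after quantile normalization, 21 with a floor at the 60th percentile, 61 and 68 with wild-type arrays numbered 1 and 2, 8 with E14 SRFdM-VP16 alone, 11 with E81 alone, 62 with E99, 19 in the fit of only these arrays and 19 with lines and plasmids pooled. E14 SRFdM-VP16 alone moved the median of all probe sets to 0.19, against 0.03. Probe sets within 2-fold, 2425, were 1446 with arrays numbered 1, 1461 with SRFdM-VP16 alone, 1501 with E100 alone and 491 with a margin of 1.5-fold. The -/- controls had 8 calls against wild type, which were 4 after quantile normalization, division by the array median, without the trend, or pooled, 2 with the sine or a filter at the 60th percentile, 62 with the higher floor, 82 without a filter, 21 and 91 with arrays numbered 1 and 2, 17 and 3 with vector or SRFdM-VP16 alone, and 49 in the fit of only these arrays. Deficits returned, 1, were 2 without a filter, 4 with arrays numbered 2 and 0 with E99, and those exceeded, 0, were 2 with arrays numbered 2 and 2 with E99. SRF-VP16 -/- against -/- controls had 414 calls and 215 in the fit of only these arrays. E81 against E100 had 44, and 22, 28, 16, 0 and 0 after quantile normalization, division by the median, the sine, the higher filter and in the fit of only these arrays (838 at an unadjusted p under 0.05). Leaving out each array gave 81 to 209 higher, 14 to 67 lower, 1861 to 2089 within 2-fold, 4 to 41 and 235 to 508 calls for the -/- controls against wild type and for SRF-VP16 against them, 44 to 154 between lines, and 1 to 2 returned, with 0 exceeded. The causes were not tested. Deviations of same-numbered arrays correlated at r = 0.417 between the E14 control groups and at 0.317 between those of E99. Within E81 and E100 r was 0.248 to 0.306. Between different lines r ran from -0.393 to 0.31. The values of the E14 and, by little, the E99 control groups lay beyond this range. Where E14 or E99 SRF-VP16 arrays were involved r fell as low as -0.349, and the labels do not say what a number marks. The numbers were thus not taken as pairing, and the E14 and E99 controls were fitted as independent although they deviated by number. With the replicate number as a replicate block there were 132 higher and 34 lower, and 5 calls for the -/- controls. With a replicate block within lines there were 128 higher, 31 lower, 2595 within 2-fold, 6 calls for the -/- controls, 400 for SRF-VP16 against them and 32 between lines; 6 named genes lost their call (1810009J06Rik, Cdh1, Col4a2, Dppa3, Myl9 and Ntan1) and 3 gained one (Actn1, Col4a1 and Igf2). Probe sets near the floor limit what dim transcripts can show.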
